A study of Mus musculus with 16 samples.

Results

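Chemokines are small secreted proteins that steer migrating leukocytes, and their receptors are G protein-coupled receptors on the surface of the cells that respond. The genes described here were chosen by name, as the noncontrol probes of the array whose gene name begins with Ccl, Cxcl, Ccr or Cxcr followed by a number (Ccrl1 and Ccrl2 included), with Cx3cl1, Xcl1 and Xcr1. There were 69 such probes of 41174, for 52 gene names of 27962. Ligands divide into those made without a stimulus, which guide the traffic and placement of cells in healthy tissue, and inflammatory ones, which macrophages, microglia and astrocytes make after injury or infection. In the spinal cord the neuronal ligand Cx3cl1 acts on the microglial receptor Cx3cr1, and Cxcl12 acts on Cxcr4 in the development and vasculature of the tissue.

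RNA of the lumbar spinal cord was measured on 16 two-colour whole genome arrays. The 4 groups were wild-type (non-transgenic) mice of 40 days, SOD1G93A mice of 40 days, wild-type mice of 80 days and SOD1G93A mice of 80 days, with 4 arrays each, on the mixed B6SJL background. SOD1G93A mice carry a human SOD1 gene with a mutation of familial amyotrophic lateral sclerosis and were taken before symptoms at both ages, all of them males by the study's methods. Each array held the cord sample labeled with Cy3 and a reference pool of neonatal organs labeled with Cy5, which was made of both genotypes and was the same in kind for every group. The values below are log2 ratios of Cy3 to Cy5, with no array of exchanged dyes, so a ratio describes cord over reference with any effect of the dye included, and ratios of different probes are not compared with each other. Whole tissue was used, in which fewer cells of a type and less RNA per cell cannot be told apart.

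The scanner software marks each spot that is well above background. Depending on the array, 46.1% to 55.3% of all probes had this mark in the cord channel and 57.1% to 69.97% in the reference channel, and correlations between the arrays were 0.961 or higher. Markers of neurons and oligodendrocytes had mean log2 ratios of 5.48 to 5.89 and 5.30 to 6.01, and heart markers of -4.79 to -4.54, over the 16 arrays. Each slide held 1 array of every group, always at the same position for a group, and the effects of position and of group cannot be told apart. On SOD1G93A 80 days replicate 4, 63 spots lay more than 20 units under their own local background, more than on any other array.

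Chemokine genes were near the background more often than other genes of the array. Of the 69 probes, 12 were well above background in the cord channel on all 16 arrays, which is 17.4% against 43.1% of all probes. At least 1 array marked 45 of them (65.2%, all probes 70%). In at least 1 group 3 or more of the 4 arrays marked 26 probes of 21 genes, which made them testable (37.7%, all probes 53.3%). In the reference channel 34 probes (49.3%, all probes 54.7%) were above background on every array. These shares are descriptions, and no test was run on them.

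The roles differed in how much could be measured. Genes were placed in roles by a list and not by these data, and every contrast between roles depends on that list. Its homeostatic ligands were Ccl17, Ccl19, Ccl20, Ccl21c, Ccl22, Ccl24, Ccl25, Ccl27, Ccl28, Cx3cl1, Cxcl12, Cxcl13, Cxcl14, Cxcl15 and Cxcl16. Whether each of them is made without a stimulus was not tested. Of the 15 homeostatic ligand genes 10 were testable, and 8 of these were above background on all arrays. Of 18 inflammatory ligand genes 6 were testable, and of 17 receptor genes 3, among them Cxcr4 and Ccrl2. Both remaining ligands, the platelet chemokines Cxcl4 (Pf4) and Cxcl7 (Ppbp), were testable. No array marked the cord signal of Ccl1, Ccl7, Ccl8, Ccl20, Ccl28, Cxcl1, Cxcl11, Cxcl13, Xcl1, Ccr1, Ccr1l1, Ccr2, Ccr3, Ccr4 or Cxcr6, 15 genes in all, which says that their level was not detectable here and not that it was absent.

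**Figure D1:**
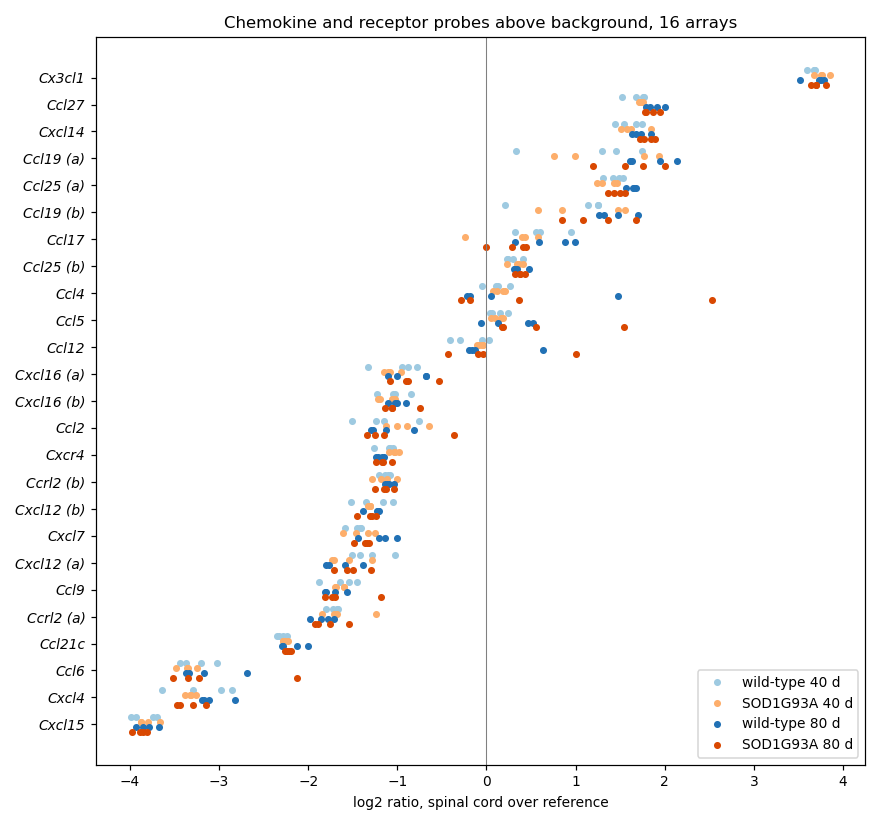
Log2 ratio of cord (Cy3) to reference (Cy5) on each of the 16 arrays for testable chemokine and receptor probes, coloured by group, with ligands and receptors on the vertical axis. Cx3cl1 lies between 3.52 and 3.86 on all arrays, whereas the points of Ccl4 reach from -0.28 to 2.53.

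Among the homeostatic ligands the neuronal chemokine Cx3cl1 (A_51_P196925, placed by the files on chromosome 8 from 93371329 to 93371388 of the mm7 mouse build) had ratios between 3.52 and 3.86 on all 16 arrays. The mean was 3.66 ± 0.039 (SD, n = 4) in wild-type and 3.76 ± 0.076 (SD, n = 4) in SOD1G93A mice at 40 days, and 3.70 ± 0.121 and 3.71 ± 0.069 (SD, n = 4) at 80 days. Cxcl14, a constitutively made chemokine of epithelia, had group means from 1.60 to 1.81, and Ccl27, an attractant of skin-homing T cells, from 1.68 to 1.89. Ccl19 and Ccl21, both ligands of Ccr7 that guide T cells and dendritic cells to lymph nodes, had ratios of 1.51 (A_51_P458258, mean of all 16 arrays) and -2.24 (Ccl21c). The Ccl21 and Ccl27 genes have near-identical copies, so the copy that gave these signals is uncertain. For Ccr7 itself 1 array of 16 was marked above background.

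Cxcl12, the ligand of Cxcr4, had 2 testable probes, with means over the 16 arrays of -1.51 (A_51_P172502) and -1.29 (A_52_P685021), and Cxcr4 (A_52_P585124) of -1.13. Cxcl16, the membrane-bound ligand of Cxcr6, had means of -0.94 and -1.04, and its receptor was not well above background on any array. Ccl25, which directs thymocytes and gut lymphocytes, had 3 probes. The probe A_51_P161265 was well above background on all 16 arrays with a mean ratio of 1.47, A_52_P326713 on 13 with a mean of 0.34, and the last on 1. Its receptor Ccr9 was marked on 1 array.

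Of the 18 inflammatory ligand genes, Ccl6 and Ccl9 were above background on all 16 arrays and 6 on none, and Ccl3, Ccl4, Cxcl10 and Ccl12 were highest on a pair of arrays from 80-day mice. Ccl3 and Ccl4, which macrophages and microglia secrete, had Cy3 signals of 112 and 177 scanner units on SOD1G93A 80 days replicate 4. On wild-type 80 days replicate 3 the signals were 66.5 and 93, and on the other 14 arrays they lay from 41 to 46 for Ccl3 and from 43 to 55 for Ccl4. Both genes thus stood highest on 1 transgenic and second highest on 1 wild-type array, and the remaining arrays of all 4 groups lay close together.

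On the log2 ratio scale Ccl4 (A_51_P509573, chromosome 11, 83734455 to 83734514 of mm7) was -0.28, -0.18, 0.36 and 2.53 on SOD1G93A 80 days replicates 1 to 4. On wild-type 80 days replicates 1 to 4 it was 0.06, -0.18, 1.48 and -0.22. In both genotypes 1 array of 4 was high. The groups overlapped, and the highest transgenic array lay above every wild-type array. At 40 days its 8 ratios lay between -0.05 and 0.27. Ccl4 was marked above background on 10 of 16 arrays, on 2 of 4 in either genotype at 80 days, and was therefore not tested between the genotypes at that age.

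Ccl3 (A_51_P140710, chromosome 11, 83717761 to 83717820 of mm7) had ratios of -0.12, -0.22, -0.0044 and 1.45 on SOD1G93A 80 days replicates 1 to 4 and of -0.25, -0.26, 0.69 and -0.16 on the wild-type arrays of that age. It was above background on only 2 of the 16 arrays. Cxcl10, the interferon-induced ligand of Cxcr3, had ratios of -0.02, -0.18, 0.26 and 2.16 on the SOD1G93A and -0.16, -0.02, 0.64 and 0.01 on the wild-type arrays of 80 days, and was above background on 4 arrays. Its Cy3 signal was 140.5 units on SOD1G93A replicate 4, 61 on wild-type replicate 3 and 41 to 51 on the other 14 arrays. These genes, which were not testable, gave the same picture as Ccl4: 1 high array in each genotype.

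Ccl12, a monocyte attractant of rodents, had ratios of 1.00 on SOD1G93A 80 days replicate 4 and 0.63 on wild-type 80 days replicate 3, against -0.43 to 0.03 on the others. Ccl6, a macrophage chemokine, stood at -2.12 and -2.69 on those arrays and from -3.52 to -3.03 on the others. Ccl5, a T cell attractant, was 1.54 and 0.47 (A_52_P638459) against -0.07 to 0.56 elsewhere, so that only the transgenic array stood apart. Ccl2, the main ligand of Ccr2, was -0.36 and -0.82 against -1.51 to -0.64, and Ccl9, another macrophage chemokine, -1.19 and -1.57 against -1.87 to -1.46. All 6 testable inflammatory ligand probes were highest on SOD1G93A 80 days replicate 4, as were 2 of 14 homeostatic probes (both of Cxcl16). Over all probes 7.89% had their highest ratio on that array.

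**Figure D2:**
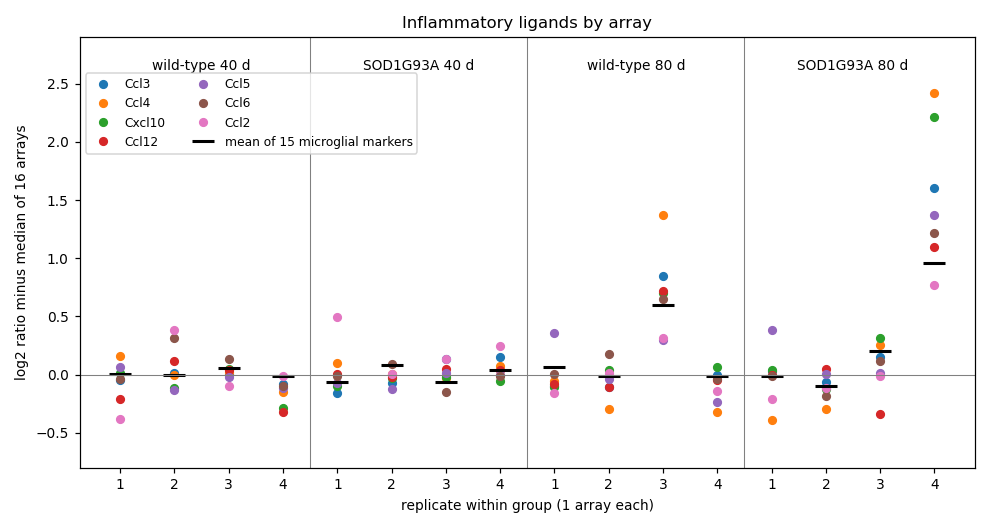
Log2 ratio of cord (Cy3) to reference (Cy5) of 7 inflammatory ligands (coloured points) and the mean of 15 microglial marker genes (black bars), each minus its median over the 16 arrays, in order of group and replicate. Ccl3, Ccl4, Cxcl10 and Ccl12 peak on SOD1G93A 80 days replicate 4 and again, lower, on wild-type 80 days replicate 3, where the microglial mean is also raised.

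The order of the top pair of arrays was the same for Ccl3, Ccl4, Cxcl10 and Ccl12 with the local backgrounds as deposited, with the scanner's processed signals, with the Cy3 channel alone and with the values the authors normalized. Of the 15 microglial marker genes, all above background, 11 were highest on SOD1G93A 80 days replicate 4, and 10 had that array and wild-type 80 days replicate 3 as their highest pair. Their mean log2 ratio was 1.56 and 1.20 on these arrays and 0.50 to 0.80 on the other 14. Aif1, a microglial calcium-binding protein, was 1.67 and 1.72 (A_51_P400543), and Tyrobp, a signalling adaptor, 1.13 and 0.54 against -1.08 to -0.41. Cx3cr1, the receptor of Cx3cl1, was 2.16 and 1.51 against 1.02 to 1.51 elsewhere (A_52_P99810), so that only the transgenic array stood apart.

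Marker lists of blood cells were read on the same arrays. The mean ratio of 6 monocyte genes was -2.71 and -2.53 against -3.29 to -2.51 on the other 14 arrays, of which 1 lay above this pair. Of these genes 2 were highest on SOD1G93A 80 days replicate 4, and 3 had this pair of arrays as their highest. The mean of 5 neutrophil genes was -2.00 and -2.08 against -2.27 to -0.92, and 0 of them were highest on the transgenic array. Of the 9 T cell genes only 2 were above background on at least 12 arrays, with means of 1.84 and 1.87 against 1.84 to 2.01. Of those 2 genes 0 were highest on the transgenic array. The T cell receptor chain Cd3e, not among the 2, was 0.74 on SOD1G93A 80 days replicate 4 and at most 0.05 elsewhere (A_51_P455681). This Cd3e probe was marked above background on only 7 of 16 arrays, and the other Cd3e probe on 1. The part of any cell type in the chemokine values was not tested.

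The promoters of 4 of the ligands that were highest on this pair of arrays are shown, since the arrays were shared, and those of Ccl2, Ccl4 and Ccl5 were not analysed here. Each is the 250 bases before the transcription start in RefSeq (build GRCm38.p6), read on the strand of the gene, with matches to the NF-κB consensus or to TATAAA in capitals. NF-κB is a transcription factor of the inflammatory response, and its consensus was searched on both strands, TATAAA on that of the gene.
Cxcl10, chr5:92348890-92349139, minus strand: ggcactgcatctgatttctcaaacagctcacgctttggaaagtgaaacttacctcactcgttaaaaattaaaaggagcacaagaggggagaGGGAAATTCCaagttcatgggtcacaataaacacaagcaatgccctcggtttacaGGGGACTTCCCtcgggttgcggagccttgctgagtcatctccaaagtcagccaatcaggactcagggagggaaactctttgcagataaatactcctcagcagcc
Ccl3, chr11:83649379-83649628, minus strand: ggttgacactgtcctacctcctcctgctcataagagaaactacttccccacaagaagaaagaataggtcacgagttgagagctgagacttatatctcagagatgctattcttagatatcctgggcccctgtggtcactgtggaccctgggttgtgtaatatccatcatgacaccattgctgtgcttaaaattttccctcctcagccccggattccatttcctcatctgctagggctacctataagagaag
Ccl12, chr11:82101595-82101844, plus strand: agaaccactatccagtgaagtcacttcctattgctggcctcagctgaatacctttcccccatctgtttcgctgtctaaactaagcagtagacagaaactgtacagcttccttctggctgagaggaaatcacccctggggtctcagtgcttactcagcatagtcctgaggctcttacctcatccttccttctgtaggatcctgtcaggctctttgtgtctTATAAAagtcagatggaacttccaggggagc
Ccl6, chr11:83593088-83593337, minus strand: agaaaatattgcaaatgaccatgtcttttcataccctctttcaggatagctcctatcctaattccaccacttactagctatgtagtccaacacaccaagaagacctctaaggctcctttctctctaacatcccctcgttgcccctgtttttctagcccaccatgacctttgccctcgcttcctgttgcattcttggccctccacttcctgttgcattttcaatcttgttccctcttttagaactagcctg
Cxcl10 holds NF-κB matches at 3 positions, of which 2 overlap in the second block of capitals. Ccl12 holds TATAAA near its start, and Ccl3 and Ccl6 hold neither motif in this window. Of 45 promoters listed for 39 of the 52 genes, 10 (22.2%) held the NF-κB consensus and 11 (24.4%) TATAAA, against 7.25% and 7.59% of all 32851 promoters in the table. A match describes letters and not binding.

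The replicate error was wider for the inflammatory ligands, with a median SD within groups of 0.362 over their 6 testable probes and of 0.120 over the 14 homeostatic ones. The median SD within groups was 0.175 over the 26 testable probes and 0.111 over all tested probes, and 8 of the 26 lay above the 95th percentile of all probes (0.259). Of the inflammatory probes 5 did, Ccl4 (0.77), Ccl12, Ccl6, Ccl5 and Ccl2, and of the homeostatic ones 3, both probes of Ccl19 and Ccl17. The SD of Ccl4, Ccl12, Ccl6 and Ccl5 was larger at 80 days, where each group held 1 of the high arrays, in both genotypes. For Ccl4 it was 0.13 in wild-type and 0.063 in SOD1G93A mice at 40 days, and 0.81 and 1.31 at 80 days. In wild-type mice the SD of Ccl2 and Ccl9 was smaller at 80 days.

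At 40 days no chemokine or receptor was called between SOD1G93A and wild-type mice. Of 25 probes of 20 genes tested with limma, 0 had an unadjusted p under 0.05, where 4.47% of all tested probes did (2.44% as higher and 2.03% as lower), and in 0 did the groups not overlap (2.83% of all probes). All adjusted p were 0.998 or higher. Changes are log2 ratios in SOD1G93A less those in wild-type mice. The median change was 0.032 over the 25 probes and 0.0029 over all tested probes.

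The smallest p at 40 days was that of Cxcl12 (A_51_P172502), with ratios of -1.29, -1.51, -1.42 and -1.02 in wild-type and -1.73, -1.29, -1.54 and -1.71 in SOD1G93A mice. Its change was -0.25 ± 0.123 (SE; p = 0.0663 and adjusted p = 0.998 in limma, exact permutation p = 0.143), within overlapping groups. The second probe of Cxcl12 had a change of -0.04 (exact permutation p = 0.743). Cxcr4 had a change of 0.09 ± 0.060 (SE, exact permutation p = 0.114), Cx3cl1 of 0.10 ± 0.056 (SE, exact p = 0.114) and Ccl2 of 0.25 ± 0.153 (SE, exact p = 0.229), all within overlapping groups. Cxcl12 (A_51_P172502) passed the threshold in 4 of 22 alternatives, among them no background subtraction. Cxcr4 passed in 3 of 21, without background subtraction, in processed signals and in the series matrix. At this age Cxcr4 was testable only through the SOD1G93A group, where it was higher. Ccl2, Cxcl16 (A_51_P374203) and Cxcl4 passed in 1 of 21 each.

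At 80 days 3 of 24 probes tested (12.5%) passed the unadjusted threshold, Ccl17, Ccl25 and Cxcl4, all of them lower in SOD1G93A mice, and none was higher. Over all probes 6.86% passed, 3.74% as higher and 3.12% as lower, and none of the 3 had an adjusted p under 0.682. The median change over the 24 probes was 0.014, and over all probes -0.0012. In 1 of 24 probes (4.17%), Ccl25, the groups did not overlap, against 4.31% of all probes.

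**Figure D3:**
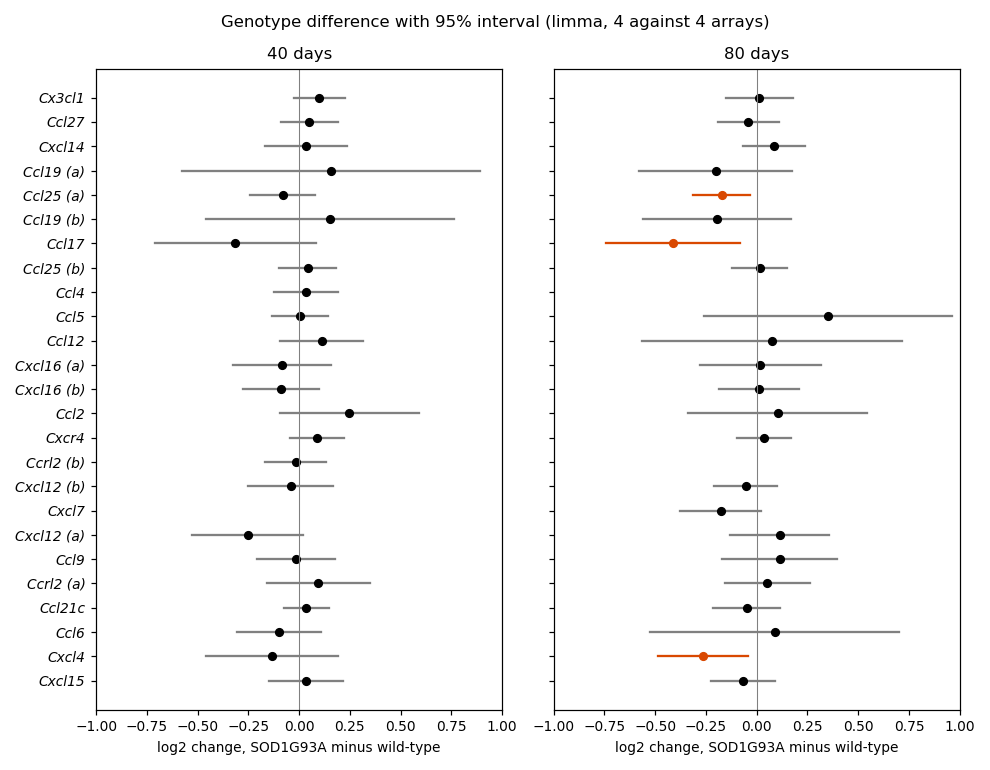
Log2 change between SOD1G93A and wild-type mice at 40 and at 80 days for testable chemokine and receptor probes, with bars for the 95% confidence interval of limma's estimate. At 80 days the intervals of Ccl17, Ccl25 (A_51_P161265) and Cxcl4 lie below 0, and at 40 days no interval leaves 0 out.

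Ccl17, a ligand of Ccr4 that attracts regulatory and type 2 helper T cells, had ratios of 0.59, 0.99, 0.32 and 0.88 in wild-type and -0.01, 0.45, 0.40 and 0.28 in SOD1G93A mice of 80 days (A_51_P114462, chromosome 8, 93400914 to 93400973 of mm7). The transgenic arrays were the lower ones on slides 1, 2 and 4 and not on slide 3, where the difference was 0.08. The change was -0.41 ± 0.149 (SE, 95% confidence interval -0.74 to -0.084), with p = 0.0189 and adjusted p = 0.682 in limma and an exact permutation p of 0.0857. At 40 days it was -0.31 ± 0.179 (SE; limma p = 0.110, exact permutation p = 0.257). Its receptor Ccr4 was not well above background on any array.

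Ccl25 (A_51_P161265, chromosome 8, 4325884 to 4325943 of mm7) had ratios of 1.68, 1.65, 1.57 and 1.65 in wild-type and 1.56, 1.43, 1.497 and 1.37 in SOD1G93A mice of 80 days. All 4 transgenic arrays lay below all 4 wild-type arrays, and the transgenic array was the lower one on every slide. The change was -0.17 ± 0.063 (SE; limma p = 0.0199, adjusted p = 0.682, exact permutation p = 0.0286, the smallest that 4 arrays against 4 allow). The probe A_52_P326713 of the same gene had a change of 0.01 ± 0.061 (SE; limma p = 0.818, exact permutation p = 0.714), so the probes disagree.

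Cxcl4, a chemokine stored in platelet granules, had ratios of -2.82, -3.19, -3.17 and -3.11 in wild-type and -3.14, -3.29, -3.47 and -3.44 in SOD1G93A mice of 80 days. It was the lower one in transgenic mice on all 4 slides, although the groups overlapped. The change was -0.26 (95% confidence interval -0.49 to -0.042; limma p = 0.0244, adjusted p = 0.708, exact permutation p = 0.0857). Cxcl7, the other platelet chemokine, was above background on 3 of 4 wild-type and 0 of 4 SOD1G93A arrays. Its normalized Cy3 mean was 1.15-fold higher in wild-type mice. The 95% confidence interval of its log2 change was -0.38 to 0.023 (limma p = 0.077, exact permutation p = 0.114). At this age Cxcl7 was testable only through the wild-type group, where it was high, so its p is not read as support for a difference.

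The 3 calls depended on single arrays, and those of Cxcl4 and Ccl25 also on the processing. Without SOD1G93A 80 days replicate 4 only 1 of the 3, Ccl17, was called. Ccl17 itself lost its call without SOD1G93A 80 days replicate 1 (-0.32), without wild-type 80 days replicate 2 (-0.32) or without wild-type 80 days replicate 4 (-0.35). Ccl25 lost it without SOD1G93A replicate 2 (-0.16) or replicate 4 (-0.14), and Cxcl4 without wild-type replicate 1 (-0.18), SOD1G93A replicate 3 (-0.22) or replicate 4 (-0.23). In all Cxcl4 lost its call in 12 of 23 alternatives, among them processed signals, Cy3 alone, the series matrix and array weights, with changes from -0.44 to -0.18. Ccl25 lost its call in 4 of 23, of which no within-array normalization gave -0.10. Leaving out both arrays with high inflammatory ligands, a choice made after seeing the data, left 2 calls, Ccl17 and Ccl25.

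Inflammatory ligands and receptors were not called between the genotypes at 80 days. The change was 0.35 ± 0.275 for Ccl5 (SE, exact permutation p = 0.4), 0.10 ± 0.199 for Ccl2 (SE, exact p = 0.771), 0.08 ± 0.288 for Ccl12 (SE, exact p = 0.743) and 0.09 ± 0.276 for Ccl6 (SE, exact p = 0.886). The 95% confidence interval of Ccl5 reached from -0.26 to 0.96, so the arrays leave a difference of either sign possible. It was 0.04 ± 0.060 for Cxcr4 (SE, exact permutation p = 0.543) and 0.11 ± 0.110 for Cxcl12 (A_51_P172502, SE, exact p = 0.429). Ccr2, the receptor of Ccl2, and Cxcr3, the receptor of Cxcl10, were marked above background on 0 and 1 arrays.

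Whether the change between the genotypes itself differed between the ages was tested on all 16 arrays. Of 26 probes of 21 genes 0 passed the unadjusted threshold in limma, against 6.68% of all probes (3.11% as higher and 3.57% as lower at 80 days). Cxcl12 (A_51_P172502) came nearest, with a difference of 0.37 ± 0.176 (SE, adjusted p = 0.748 in limma), as its change was -0.25 at 40 and 0.11 at 80 days.

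With age 5 of 24 probes passed the unadjusted threshold in wild-type mice, 4 higher and 1 lower at 80 days. Over all probes 15.3% passed, 6.88% as higher and 8.40% as lower, against 20.8% of these probes. Among the calls Cxcl7 was testable only through the 80-day group, where it was high. No member had an adjusted p under 0.122, although 350 probes (1.63%) passed at that level of 0.05. The groups did not overlap in 3 of 24 probes (12.5%), against 7.77% of all probes. Of the 26 testable probes 10 had their lowest ratio on wild-type 40 days replicate 4, as had 10.2% of all probes. That array had the fewest member probes marked in the cord channel, 16, and the lowest share of all probes, 46.1%. Its part in the changes with age was not tested beyond leaving out single arrays.

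Ccl27 rose from 1.68, 1.76, 1.76 and 1.52 at 40 days to 2.00, 1.84, 1.91 and 1.79 at 80 days in wild-type mice, with no overlap (0.21 ± 0.063, SE; limma p = 0.0047, adjusted p = 0.122, exact permutation p = 0.0286). In SOD1G93A mice it was 1.71, 1.74, 1.72 and 1.76 at 40 and 1.94, 1.87, 1.80 and 1.78 at 80 days, also with no overlap, but limma's p was 0.0848. Ccl25 (A_51_P161265) rose in wild-type mice from 1.49, 1.53, 1.31 and 1.42 to 1.68, 1.65, 1.57 and 1.65 (0.20 ± 0.066, SE; limma p = 0.0079, adjusted p = 0.154, exact permutation p = 0.0286). The probe A_52_P326713 of Ccl25 changed by only 0.07 ± 0.059 in wild-type mice (SE; limma p = 0.262, exact permutation p = 0.257). In wild-type mice Ccl27 and A_51_P161265 lay higher at 80 days on all 4 slides, and A_52_P326713 on 3.

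Cxcl7 in wild-type mice was above background on 0 of 4 arrays at 40 and 3 of 4 at 80 days. Its normalized Cy3 mean was 1.16-fold higher at 80 days. Cxcl7 was testable only through the 80-day group, where it was high, so its p is not read as support for a change. The log2 ratio of Cxcl7 changed by 0.27 (limma p = 0.0077, adjusted p = 0.152, exact permutation p = 0.0857). Its direction turned in the series matrix (-0.17), and the call was lost in 3 further settings of 21. Ccl19 (A_51_P458258) rose from 1.46, 1.30, 1.74 and 0.33 to 1.62, 1.94, 2.14 and 1.63 (0.62 ± 0.289, SE; limma p = 0.0456, adjusted p = 0.313, exact permutation p = 0.0857). The call was lost without wild-type 40 days replicate 2, without wild-type 40 days replicate 4, which held the lowest value, and without wild-type 80 days replicate 2 or 3. It was also lost with the slide as a block in limma, and in all in 10 of 22 alternatives. The second probe of Ccl19 (A_51_P458262) rose by 0.48 with no overlap of the groups (SE 0.247). It was not called (limma p = 0.0697, adjusted p = 0.373, exact permutation p = 0.0286). Cxcl12 (A_51_P172502) fell by 0.32 on the log2 scale (SE 0.125; limma p = 0.0201, adjusted p = 0.225, exact permutation p = 0.0857). Its second probe had a change of 0.01 (SE 0.084), and in the Cy3 channel alone the change of the first was -0.017. Cxcl12 lost its call without wild-type 40 days replicate 4 and without wild-type 80 days replicate 1 or 4.

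Ccl19 was low where genes of the meninges and of nerve roots were low. Its 3 lowest ratios, 0.33 on wild-type 40 days replicate 4, 0.76 on SOD1G93A 40 days replicate 3 and 0.99 on SOD1G93A 40 days replicate 2, were on the arrays where the mean of 8 meningeal fibroblast genes was lowest, at -4.03, -3.93 and -3.24 against -2.89 to -1.56 elsewhere. The mean of 3 Schwann cell genes was lowest on the same arrays, at -0.88, -0.81 and -0.04 against 0.017 to 2.57 elsewhere. The part of either tissue in the Ccl19 values was not tested.

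With age in SOD1G93A mice 2 of 25 probes (8%) passed, Ccl5 as higher and Cxcr4 as lower, against 17.2% of all probes, 8.77% as higher and 8.43% as lower. An adjusted p under 0.05 was reached by 1.18% of all probes and by none of these 25. The groups did not overlap in 1 of 25 probes, Ccl27 (4%, against 12.6% of all probes). Ccl5 (A_52_P638459) was 0.10, 0.05, 0.19 and 0.16 at 40 and 0.56, 0.18, 0.18 and 1.54 at 80 days, with a change of 0.49 ± 0.220 (SE; limma p = 0.0403, adjusted p = 0.268, exact permutation p = 0.0857). Without SOD1G93A 80 days replicate 4 the change was 0.18 and no longer passed. The call was also lost without any single SOD1G93A array of 40 days and without SOD1G93A 80 days replicate 1, and in all in 11 of 21 alternatives (changes from 0.06 to 0.95).

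Cxcr4 was -1.09, -0.98, -1.03 and -1.04 at 40 and -1.17, -1.24, -1.06 and -1.17 at 80 days in SOD1G93A mice, a change of -0.12 ± 0.056 (SE; limma p = 0.0431, adjusted p = 0.274, exact permutation p = 0.0571). It was lower on all 4 slides, but with the slide as a block in limma the call was lost. It was lost in 11 of 21 alternatives (changes from -0.48 to -0.039), among them Cy3 alone and those without SOD1G93A 40 days replicate 2, 3 or 4 or SOD1G93A 80 days replicate 1, 2 or 4. The Cxcr4 probe was near the background, with a median Cy3 signal of 51 units and 12 of 16 arrays marked. In SOD1G93A mice 4 of 4 arrays were marked at 40 and 2 of 4 at 80 days. The probe was thus testable there only through the group where it was high, and its p is not read as support for a change. In wild-type mice the change of Cxcr4 was -0.07 (exact permutation p = 0.2). The difference between these changes was -0.05 ± 0.080 (SE, adjusted p = 0.933 in limma).

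**Figure D4:**
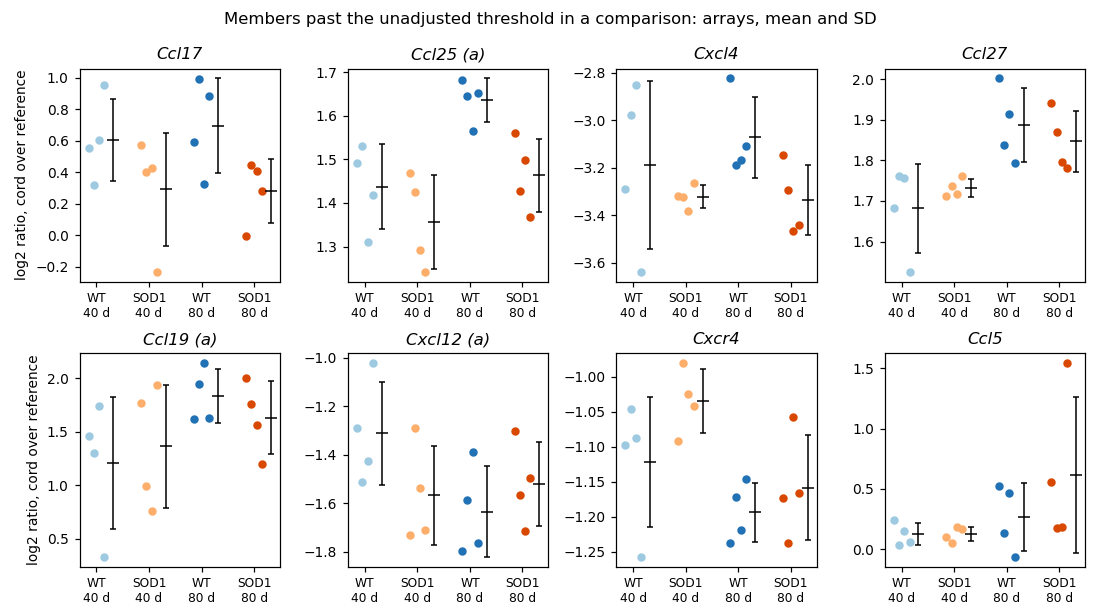
Log2 ratio of cord (Cy3) to reference (Cy5) on each array for 8 of the 9 chemokine and receptor probes with an unadjusted p under 0.05 in at least 1 comparison (Cxcl7 is not drawn), by group, with the group mean and SD as bars. For Ccl25 (A_51_P161265) the wild-type arrays of 80 days lie above those of every other group.

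The other genes of the chemokine system on the array, found under other symbols such as Cmklr1, Cklf and the Cmtm genes, were 13, of which 9 were testable. At 40 days 1 was called higher, Cmklr1, the chemerin receptor (0.22 ± 0.057, SE, adjusted p = 0.998 in limma), and 1 lower, Cmtm6, a membrane protein (-0.21). At 80 days 0 were called in either direction, and by the difference between the ages both were, Cmklr1 with -0.23 and Cmtm6 with 0.26 (adjusted p 0.737 and 0.725). In wild-type mice Cmklr1 rose with age by 0.24, and Cklf and Cmtm6 fell by 0.20 and by 0.18 on the log2 scale. Cklf also fell by 0.18 in SOD1G93A mice. Of the 9 genes 22.2% were called at 40 days, 0% at 80 days and 22.2% by the difference. Of all probes 4.47%, 6.86% and 6.68% were. With age 33.3% were called in wild-type and 11.1% in SOD1G93A mice, against 15.3% and 17.2% of all probes. Each share of the 9 genes rests on at most 3 genes.

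Of 63 testable genes of signalling downstream of chemokine receptors (G protein subunits, arrestins, phosphoinositide 3-kinases and small GTPases), 3 were called higher and 2 lower at 40 days and 3 higher and 0 lower at 80 days, and none in the same direction at both ages. These were 7.94% and 4.76%, against 4.47% and 6.86% of all probes. With age 3 were higher and 9 lower in wild-type and 5 higher and 8 lower in SOD1G93A mice, 19% and 20.6% against 15.3% and 17.2% of all probes. In both genotypes Rap1a, a GTPase of integrin activation, was lower (-0.48 and -0.43), as were Nras (-0.34 and -0.28) and Gng12 (-0.28 and -0.18), and the arrestin Arrb1, which uncouples receptors, was higher (0.22 and 0.27). In wild-type mice limma's adjusted p was 0.030 for Nras, 0.040 for Gng12, 0.051 for Rap1a and 0.198 for Arrb1. In SOD1G93A mice it was above 0.05 for each of them. Bcar1 was also lower in wild-type mice (-0.25, adjusted p = 0.013 in limma). Of all probes 1.63% had an adjusted p under 0.05 in wild-type mice. Of 16 testable genes of the NF-κB pathway, which induces inflammatory chemokines, 0 were called between the genotypes at either age. Of all probes 4.47% and 6.86% were. With age 1 of the 16 was higher in wild-type mice, Il1r1 (adjusted p = 0.248 in limma). In SOD1G93A mice 2 were, Relb and Tnfaip3 (adjusted p 0.232 and 0.202 in limma), and 0 were lower in either genotype. These were 6.25% and 12.5%, against 15.3% and 17.2% of all probes. Nfkb1 was called by the difference between the ages (0.16, adjusted p = 0.715 in limma), 6.25% of the genes against 6.68% of all probes. The mean ratio of the 16 genes was -0.42 on wild-type 80 days replicate 3 and -0.44 on SOD1G93A 80 days replicate 4, against -0.62 to -0.50 on the other arrays.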

How the data were processed

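Lumbar cord RNA (Cy3) of 16 samples was hybridized with a neonatal organ reference (Cy5). Groups follow the genotype and the age that the labels give, which call the samples biological replicates. Animals were 5 per group by the methods, and 4 arrays a group were analysed here. The authors extracted spots with Agilent Feature Extraction 9.5.3.1, per the labels, and deposited spot signals as intensity values without normalization. The authors also deposited normalized log2 values as a series matrix, which follow the Cy3 channel (r at least 0.993), with medians of 6.09 to 6.40 and an unstated centring, and served as an alternative.

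Median signals were corrected by normexp (offset 50) after spots more than 20 units under their local background were given the array's median background. Log ratios were then loess normalized within arrays in limma 3.58.1 (R 4.3.3, statmod 1.5.0, and data.table, version 1.17.8). Aquantile normalization between arrays was used only for the normalized Cy3 means given for Cxcl7. Control and outlier spots were left out, and spots of a probe averaged. The 41174 probes were tested where 3 or more of the 4 Cy3 signals of a group were marked well above background. Calls used a two-sided p under 0.05 without adjustment, after the methods of the study, with Benjamini-Hochberg adjustment over all tested probes beside it. Genotypes were compared on the 8 arrays of an age, ages and the difference between ages on all 16. In simulated data for genotype at 80 days (21506 probes), 67.2%, 97.0% and 100% of probes changed by 0.25, 0.5 and 1 on the log2 scale were called, and 5.05% of unchanged ones. These shares are for probes drawn from all tested ones, with noise that was independent between probes and arrays. The median SD within groups was 0.175 over the 26 testable member probes and 0.111 over all tested probes. The shares for the members were not simulated. The number of arrays and the signal over background limit the precision.

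The members and lists were chosen with earlier results of these data known. Named are a list of ligands and receptors, each member probe with a p under 0.05 or no overlap in a comparison, and others by counts. Results of 1 gene are not reported here or drawn, while counts include it. Of 69 member probes 61 matched a RefSeq accession, 4 with another current symbol. Gene names are those of the files. Probe coordinates are those of the files (mm7) and promoter coordinates those of RefSeq (GRCm38.p6). Alternatives were other background corrections, signals, normalizations, filters, weights and spread, a block on the replicate number, and leaving out single arrays.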

Additional observations from a re-analysis of the deposited data

Results flagged for a closer look

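Within groups of 4 arrays, 111 groups of 33 member probes were checked for 1 array far from the other 3, and 7 (6.31%) had one, where chance gives about 1 in 20. Of the 7, 4 were on wild-type 80 days replicate 3 and 1 on SOD1G93A 80 days replicate 4.

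On wild-type 80 days replicate 3 the log2 ratio was the highest of its group for Ccl4 (1.48), Ccl3 (0.69) and Ccl12 (0.63) and the lowest for Cxcl12 (-1.39, A_52_P685021). On SOD1G93A 80 days replicate 4 it was the highest for Ccl3 (1.45). The mean of 15 microglial genes was also highest on these arrays, and its part was not tested.

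Ccl19 (A_51_P458262) was lowest on wild-type 40 days replicate 4 (0.21), the array with the lowest means of meningeal fibroblast and Schwann cell genes. Cx3cl1 was lowest on wild-type 40 days replicate 3 (3.601), by less than 0.1 from the rest of its group.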

How the results depend on the processing

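The counts of member probes called changed with the processing as follows. For genotype at 40 days (0 called) they were 2 with no background subtraction and 1 with processed signals, with no within-array normalization, with the series matrix and with no filter on dim probes. For genotype at 80 days (3) they were 1 with no within-array normalization or Cy3 alone, 2 with backgrounds not reset, processed signals, the series matrix, all 16 arrays or array weights, and 6 with no filter. For the difference between the ages (0) they were 2 with no background subtraction or processed signals, 1 with mean signals, no within-array normalization or array weights, and 4 with no filter. For age in wild-type mice (5) they were 2 with no within-array normalization, 9 in the series matrix, 8 with no filter and 3 with array weights. For age in SOD1G93A mice (2) they were 1 with backgrounds not reset, with the 8 arrays of the genotype alone or with the replicate block, 0 with processed signals, no within-array normalization or a filter on all arrays, 11 in the series matrix and 5 with no filter. Leaving out 1 array at a time gave 0 to 2, 1 to 3, 0 to 1, 4 to 6 and 0 to 2 calls in these comparisons. Shares of all probes are not given beside these counts, which describe the settings and not the members. In the series matrix 3.99% of all calls with age in wild-type mice were higher, against 45% in the main processing. In SOD1G93A mice 6.41% were, against 51%. The causes were not tested.

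Cxcl7 in wild-type mice reversed in the series matrix (-0.17), where the median of all probes moved by -0.127, and by -0.134 with age in SOD1G93A mice. Over 1021 alternatives of 46 member values, 63 lost a call, 23 gained one and 1 reversed. Replicate numbers, which are also the slides, did not pair the samples over all groups (7 of 24 correlations over 0.1, range -0.14 to 0.23), although between the ages in SOD1G93A mice 3 of 4 were over 0.1 and the last was 0.0898. With the replicate block 0, 3, 0, 4 and 1 probes were called. The calls lost were Ccl19 in wild-type and Cxcr4 in SOD1G93A mice. Low signal limits the members, as 12 of 69 probes were above background on all arrays.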
